A study of Mus musculus with 72 samples.

Results

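Expression of 10 genes of lipoprotein assembly was followed through the liver, the epididymal white adipose tissue (eWAT) and the pituitary of the same mice. They are Apoa1, Apoa2, Apoa4, Apoa5, Apob, Apoc1, Apoc3, Apoe, Apom and Mttp, chosen by name, and all 10 were found by Ensembl identifier among the 55416 genes counted. The 72 libraries came from 24 male FVB.129P2 mice, a sighted FVB strain, with 6 mice in each of 4 groups. FED offspring had dams with free access to food, while the dams of CR20 offspring received 20% less from embryonic day 15 until weaning on postnatal day 21. From 8 weeks of age the offspring ate a 10% fat diet (CTRL) or a 45% fat diet (HFD), for 10 weeks according to the methods, although the labels leave room for a longer time. The groups are thus FED-CTRL, FED-HFD, CR20-CTRL and CR20-HFD. The mouse number in the labels links the 3 tissues of an animal, the litter of each mouse is not given, and mice of a group may share a dam.

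Lipoproteins carry cholesterol, phospholipids and triglycerides through plasma. Apob is the large structural protein of very low density lipoprotein and chylomicrons, and Mttp, the microsomal triglyceride transfer protein, loads it with lipid in the endoplasmic reticulum of hepatocytes and enterocytes. Apoa1 and Apoa2 are the main proteins of high density lipoprotein. Apoc1, Apoc3 and Apoa5 act on the clearance of triglyceride-rich particles, Apoc3 as an inhibitor of lipoprotein lipase and Apoa5 as a promoter of lipolysis. Apoa4 is made mainly by the intestine and in mice also by the liver. Apoe is the ligand by which remnants are taken up through the LDL receptor family, and macrophages and adipocytes make it as well as hepatocytes. Apom carries sphingosine-1-phosphate on high density lipoprotein.

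In the GRCm39 genome, 4 of the 10 genes lie on chromosome 9 within 43.3 kb, in the order Apoa1 (46139878 to 46142212), Apoc3 (46142527 to 46146934), Apoa4 (46151994 to 46154757) and Apoa5 (46179931 to 46183217). Apoc3 is on the minus strand and the other 3 on the plus strand, and only 314 bases separate Apoa1 from Apoc3. On chromosome 7, Apoc1 (19422540 to 19427328) and Apoe (19430034 to 19434947) are minus-strand neighbours 2.71 kb apart. The other genes stand alone, Apoa2 on chromosome 1 (171049125 to 171053948, plus), Mttp on chromosome 3 (137795612 to 137850729, minus), Apob on chromosome 12 (8027648 to 8066835, plus) and Apom on chromosome 17 (35347973 to 35351026, minus).

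RefSeq's promoter table (GRCm38.p6) held 12 windows for 8 of the 10 genes, all but Apoc1 and Apoc3, and the 250 bases before each start matched GRCm39 exactly once. Stretches of 4 windows outside annotated exons are shown, because 3 of them belong to the chromosome 9 cluster whose genes varied together in the liver, and because Apob held both motifs that were found in these 4. Capitals mark CAAAGNNCA, the core of a repeat recognised by HNF4A, and TATAAA, the TATA box, on either strand.
Apoa1 (chr9:46139678-46139877, plus): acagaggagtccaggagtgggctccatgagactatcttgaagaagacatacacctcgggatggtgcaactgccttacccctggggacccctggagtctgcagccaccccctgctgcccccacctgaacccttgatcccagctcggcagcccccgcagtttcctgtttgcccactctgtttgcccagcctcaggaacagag
Apoa4 (chr9:46151892-46151993, plus): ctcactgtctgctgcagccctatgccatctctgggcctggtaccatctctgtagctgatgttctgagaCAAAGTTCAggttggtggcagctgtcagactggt
Apoa5 (chr9:46179656-46179905, plus): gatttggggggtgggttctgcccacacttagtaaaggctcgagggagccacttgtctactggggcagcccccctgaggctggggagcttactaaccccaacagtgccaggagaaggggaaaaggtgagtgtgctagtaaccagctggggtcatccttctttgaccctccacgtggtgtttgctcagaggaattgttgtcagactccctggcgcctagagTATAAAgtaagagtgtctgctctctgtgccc
Apob (chr12:8027427-8027647, plus): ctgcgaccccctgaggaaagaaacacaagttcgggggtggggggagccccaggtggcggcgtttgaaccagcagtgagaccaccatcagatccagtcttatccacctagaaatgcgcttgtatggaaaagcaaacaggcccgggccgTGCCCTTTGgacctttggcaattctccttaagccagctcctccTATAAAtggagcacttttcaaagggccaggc

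CAAAGNNCA occurred in 2 of the 12 windows, those of Apoa4 and Apob, and in 5.49% of all 32851 windows of the table. TATAAA occurred in 5 of the 12 windows, of Apoa2, both windows of Apoa5, Apob and Apoe, against 12.4% of all windows. The Apoa5 windows (46179656 to 46179905 and 46179681 to 46179930) overlap and hold the same TATAAA, which is therefore counted in each. The GC box GGGCGG, searched in the same way, was in 0 of the 12 and in 32.7% of all. A match describes letters only and shows no bound factor.

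Total counts per library ranged from 11589675 to 22364963 in eWAT, from 9842813 to 19928212 in liver and from 18299494 to 27601208 in pituitary. Levels are given as CPM, which are counts divided by the TMM-scaled library size, in which 3 counts, taken as the limit of detection, corresponded to 0.109 to 0.305 CPM depending on the library. That limit covers counting error only. The tissue labels matched their markers, with summed hepatocyte markers at 76740 to 133893 CPM in liver, adipocyte markers at 10331 to 43770 CPM in eWAT, and hormone cell markers at 232580 to 409978 CPM in pituitary. Several eWAT libraries stood apart. FED-HFD mouse 23 had the lowest adipocyte sum (10331 CPM) and the highest macrophage sum (10353 CPM), and epididymis and testis markers reached 136, 53.2 and 26.8 CPM in CR20-CTRL mice 4 and 5 and CR20-HFD mouse 6. FED-HFD mice 10 and 13 and CR20-CTRL mouse 5 held counts of hepatocyte genes that the other 21 libraries nearly lacked. In bulk tissue, fewer cells of a type and less RNA per cell cannot be told apart.

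The liver made most of these transcripts. The 10 genes together took 5.52% ± 0.752 (SD, n = 24) of all liver counts, 0.413% ± 0.106 (SD, n = 24) in eWAT and 0.036% ± 0.00441 (SD, n = 24) in pituitary. Apoe alone accounted for a median of 39.1% of the summed counts of the 10 genes in liver, 96.4% in eWAT and 91.6% in pituitary. By the methods, liver RNA was extracted with other reagents than eWAT and pituitary RNA, and no test between the tissues was made.

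Per kb of annotated exon, the liver levels fell into a steep order. Apoa1 stood highest at a median of 6314 CPM per kb, followed by Apoe at 5176, Apoa2 at 1913, Apoc1 at 1818, Apoc3 at 717, Apoa5 at 691, Apob at 287, Apoa4 at 176, Apom at 111 and Mttp at 35.1. Apoa1 was above Apoe in 22 of the 24 livers and Apoe above Apoa2 in all 24. Apoa2 exceeded Apoc1 in only 16 and Apoc3 exceeded Apoa5 in only 13, so those neighbours did not separate beyond the spread between mice. Lengths are those of all annotated exons of a gene merged, which lowers the value of a gene with rarely used exons.

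Outside the liver, only Apoe, Apoc1 in eWAT, and Mttp stood at levels well above the limit of detection. Apoe ranged from 15700 to 33895 CPM in liver (median 20951), from 1388 to 6229 in eWAT (median 3859) and from 248 to 398 in pituitary (median 333). The 3 tissues did not overlap, and the liver median was 5.43 times that of eWAT and 62.9 times that of pituitary. Apoc1 had a median of 3942 CPM in liver, 136 in eWAT and 0.686 in pituitary, which is 28.9 times and 5743 times lower outside the liver. Mttp had a different order, with 167 to 367 CPM in liver (median 248), 23.7 to 34.2 in pituitary (median 27.2) and 4.01 to 16.9 in eWAT (median 5.94). Every pituitary was thus above every eWAT library for Mttp, the reverse of Apoe and Apoc1.

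Apoa1, Apoa2, Apoa4, Apoa5, Apob and Apom were close to absent outside the liver in most libraries. Apoa1 had a median of 10784 CPM in liver against 0.303 in eWAT and 0.528 in pituitary, where the median library held 5 and 12 counts. Apob had a median of 3993 CPM in liver and was under 3 counts in 12 of 24 libraries of each other tissue. Taking the others at 3 counts, the liver median of Apob was at least 15428-fold higher than in eWAT and at least 24359-fold higher than in pituitary. By the same floor, Apoa4 was at least 1235-fold and Apoa5 at least 7366-fold higher in liver than in eWAT. Apom was at least 438-fold higher.

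**Figure D1:**
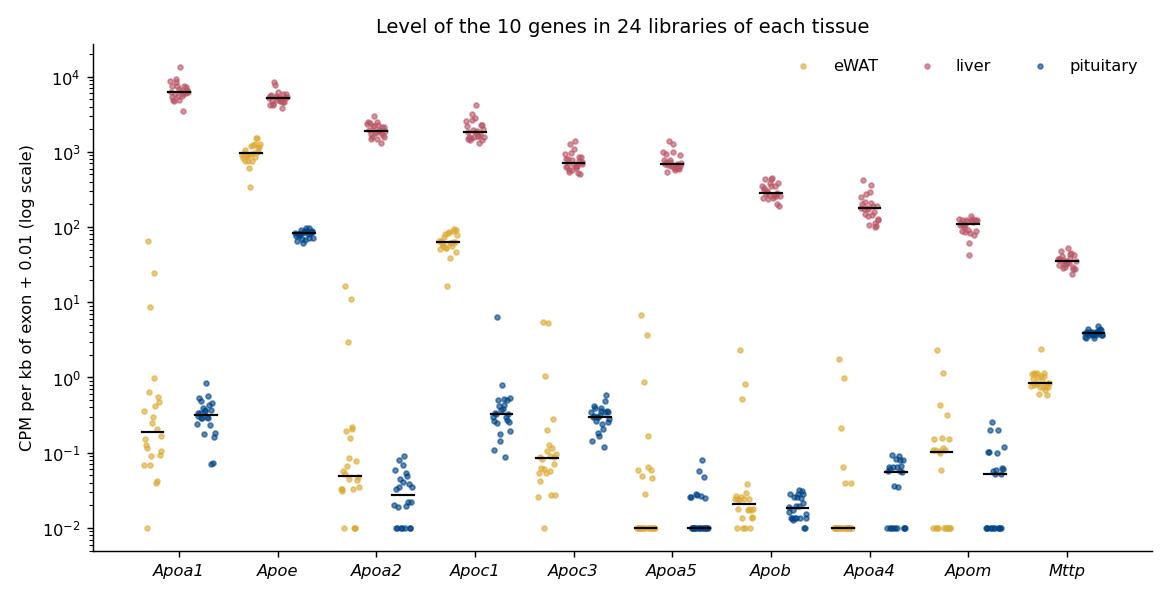
Level of the 10 genes in each of the 24 libraries of eWAT, liver and pituitary, in CPM per kb of exon plus 0.01 on a log axis, with 1 point per library and a bar at the median. Liver points lie above those of the other tissues for every gene, Apoe and Apoc1 remain high in eWAT, and Mttp is higher in pituitary than in eWAT.

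Differences between the groups were tested by edgeR's quasi-likelihood test on all 24 libraries of a tissue. A call required a Benjamini-Hochberg adjusted p-value no higher than 0.055 together with a log2 fold change (log2FC) of 0.58 or more in either direction, thresholds taken from the methods of the study. Intervals of a log2FC span 2 standard errors on either side. After the filter on low counts, 10 of the 10 genes could be tested in liver, 5 in eWAT (Apoa1, Apoa2, Apoc1, Apoe and Mttp) and 5 in pituitary (Apoa1, Apoc1, Apoc3, Apoe and Mttp). Apoa1 and Apoa2 passed the eWAT filter although their median libraries held 5 and 3.5 counts. The comparisons were HFD against CTRL in FED and in CR20 mice, CR20 against FED on each diet, the interaction between maternal group and diet, and either factor averaged over the other.

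In eWAT, Apoe differed between the maternal groups on the high fat diet. Apoe ranged from 3068 to 4332 CPM in FED-CTRL (median 3614), from 1388 to 3844 in FED-HFD (median 3286), from 3071 to 5201 in CR20-CTRL (median 4340) and from 4005 to 6229 in CR20-HFD (median 4912). All 6 CR20-HFD mice were above all 6 FED-HFD mice, while every other pair of groups in the pairwise comparisons overlapped. Apoe was 1.71-fold higher in CR20-HFD than in FED-HFD (log2FC 0.77, standard error 0.193, edgeR adjusted p = 0.00958). The exact permutation test over the 924 divisions of 12 mice gave a two-sided p of 0.00216, the smallest it can give. In the same comparison, edgeR gave 29.8% of all 15964 genes an unadjusted p under 0.05. The share of all genes without overlap between these groups is not given here.

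The other Apoe comparisons in eWAT were not called. Between the diets in FED mice the log2FC was -0.28 (interval -0.67 to 0.1, edgeR adjusted p = 0.371) and in CR20 mice it was 0.27 (-0.11 to 0.66, adjusted p = 0.934). Between the maternal groups on the control diet it was 0.21 (-0.17 to 0.6, edgeR adjusted p = 0.94). Averaged over diets, Apoe was 1.41-fold higher in CR20 mice (log2FC 0.49, edgeR adjusted p = 0.0332), which is below the fold required for a call. The interaction was 0.56 with an edgeR adjusted p of 0.277, so a different response to diet in CR20 and FED mice was not called.

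Cell markers moved beside Apoe. FED-HFD mouse 23, with the lowest Apoe of all eWAT libraries at 1388 CPM, also had the lowest adipocyte sum, 10331 CPM against 13319 to 43770 in the other 23. CR20-CTRL mouse 5, whose adipocyte sum was 13319 CPM, had the lowest Apoe of its group at 3071 CPM. Without mouse 23 the log2FC of CR20-HFD vs FED-HFD was 0.63 (edgeR adjusted p = 0.0118), and it was 0.79 (adjusted p = 0.0158) without the 3 libraries holding hepatocyte counts. In this comparison 2 of 9 adipocyte markers were called higher in CR20-HFD, beside 2.45% of all genes. These were Cfd at 1.49 and Retn at 1.02, with a list median log2FC of 0.35 against 0.02 over all genes. Summed adipocyte markers ranged from 10331 to 31529 CPM in FED-HFD and from 33274 to 38670 in CR20-HFD, which do not overlap. The part of the adipocyte markers in the result was not tested.

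Macrophage genes moved in the opposite direction to Apoe, although macrophages also make it. Of 12 macrophage markers, 9 were called lower in the CR20-HFD group, with a median log2FC of -1.06. All 7 markers of lipid-associated macrophages were called lower, with a median of -2.71, beside 7.29% of all genes called lower. Summed macrophage markers ranged from 2375 to 10353 CPM in FED-HFD and from 1417 to 2320 in CR20-HFD. The share of Apoe transcripts that came from each cell type was not tested.

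**Figure D2:**
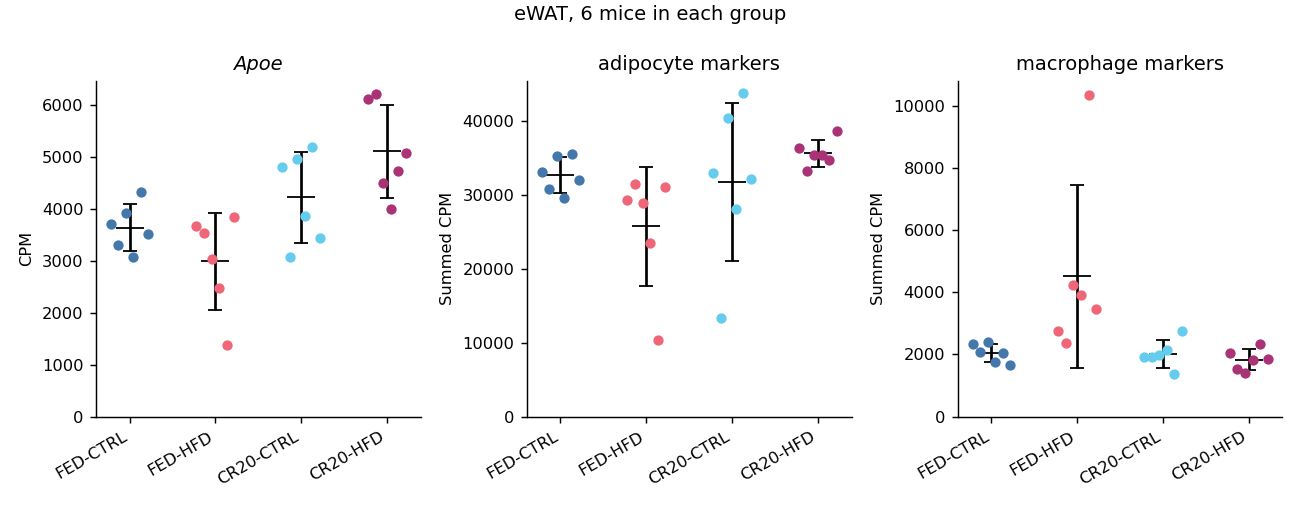
Apoe in CPM, and the summed CPM of 9 adipocyte and 12 macrophage markers, in the eWAT of 6 mice per group, with 1 point per mouse and the mean ± SD in black. Apoe and the adipocyte sum are higher in all CR20-HFD than in all FED-HFD mice, and the macrophage sum is lower.

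Apoc1, the neighbour of Apoe on chromosome 7, ranged from 111 to 142 CPM in FED-CTRL (median 129), 35.2 to 179 in FED-HFD (median 137), 85.1 to 185 in CR20-CTRL (median 134) and 100 to 207 in CR20-HFD (median 180). The 4 groups overlapped, and FED-HFD mouse 23 and CR20-CTRL mouse 5 were the lowest of all 24 libraries. For Apoe, mouse 23 was the lowest of all and mouse 5 the lowest of its group only. Its log2FC of 0.37 in CR20-HFD vs FED-HFD was not called (interval -0.14 to 0.88, edgeR adjusted p = 0.351). In deviations from the group means over 24 libraries, the genes most like Apoe were Msantd3 (Pearson r 0.93), Pink1 (0.92) and Spata6l (0.91), and those most like Apoc1 were Rtn2 (0.96), Ldhb (0.93) and its pseudogene Ldhb-ps (0.93), whose reads may be split with Ldhb. These are descriptions over libraries that also share their cell makeup.

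Mttp ranged from 5.42 to 8.02 CPM in FED-CTRL (median 7.21), 4.22 to 7.92 in FED-HFD (median 5.82), 5.25 to 16.9 in CR20-CTRL (median 7.26) and 4.01 to 5.97 in CR20-HFD (median 5.3). The groups overlapped, and the value of 16.9 belonged to CR20-CTRL mouse 5. In CR20-HFD vs CR20-CTRL the log2FC was -0.7 (standard error 0.221, edgeR adjusted p = 0.789), and without that mouse it was -0.39. The eWAT library of mouse 5 also held 39.2 CPM of enterocyte markers, where the median of all eWAT libraries was 0.347. Of the 5 enterocyte markers, however, 3 had no counts in any CR20-CTRL library of eWAT. The library of mouse 5 also held the epididymis markers and hepatocyte genes already mentioned, and the source of its Mttp was not tested. Averaged over the maternal groups, Mttp was lower on HFD by a log2FC of -0.45 (interval -0.76 to -0.14), which was not called (edgeR adjusted p = 0.147).

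The largest fold changes in eWAT were those of Apoa1 and Apoa2, and they rested on 3 libraries. Apoa1 ranged from 0 to 0.589 CPM in FED-CTRL (median 0.193), 0.0984 to 110 in FED-HFD (median 0.739), 0.0501 to 41.4 in CR20-CTRL (median 0.595) and 0.143 to 0.929 in CR20-HFD (median 0.303). Apoa2 ranged from 0 to 0.202 CPM in FED-CTRL (median 0.0985), 0.152 to 71 in FED-HFD (median 0.563), 0 to 48.5 in CR20-CTRL (median 0.744) and 0 to 0.297 in CR20-HFD (median 0.125). The high values of both genes were those of FED-HFD mouse 10, FED-HFD mouse 13 and CR20-CTRL mouse 5, and the groups otherwise overlapped near the limit of detection. The counts of Apoa1 were 1301, 245 and 571 in these 3 libraries and 0 to 31 in the other 21.

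In FED-HFD vs FED-CTRL, 2 of the 5 tested genes were called, beside 8.01% of all 15964 genes. These 2 were Apoa1 (log2FC 6.49, edgeR adjusted p = 0.0194) and Apoa2 (6.87, adjusted p = 0.0173), both higher in FED-HFD, where 6.42% of all genes were called higher and 1.58% lower. In CR20-HFD vs FED-HFD, 3 of 5 were called beside 9.73% of all genes, namely Apoe, Apoa1 (log2FC -5.6, edgeR adjusted p = 0.0249) and Apoa2 (-6.7, adjusted p = 0.0155), against 2.45% of all genes called higher and 7.29% called lower. The interaction called Apoa1 (-10.56) and Apoa2 (-12.81), 2 of 5 beside 2.42% of all genes, or 2.34% counting lower calls alone. Which genes count among the 5 depends on the low-count filter. Apoa4, Apoa5, Apob, Apoc3 and Apom did not pass it, and were also highest in FED-HFD mice 10 and 13 and CR20-CTRL mouse 5. The shares of 5 are therefore no measure of the whole gene set. Leaving out FED-HFD mouse 10 alone ended all 4 pairwise calls of Apoa1 and Apoa2. The edgeR adjusted p-values without it were 0.0908 for Apoa1 and 0.0605 for Apoa2 in FED-HFD vs FED-CTRL, then 0.16 and 0.0602 for CR20-HFD vs FED-HFD. Without the 3 libraries, a choice made after the values were seen, the diet difference in FED mice was 0.89 on the log2 scale for Apoa1 (edgeR adjusted p = 0.533) and 1.68 for Apoa2 (adjusted p = 0.172), and only Apoe was still called in CR20-HFD vs FED-HFD. The exact permutation p of Apoa1 was 0.0931 for the first comparison and 0.266 for the second, and that of Apoa2 was 0.00649 and 0.013. The other 4 comparisons called 0 of the 5 genes, beside 0% of all genes between the diets in CR20 mice and between the maternal groups on CTRL, 0.175% for HFD averaged over maternal groups and 3.96% for CR20 averaged over diets (1.62% higher and 2.34% lower). At an unadjusted p under 0.05, edgeR gave 3, 2, 1 and 1 of the 5 genes in these 4, beside 6.03%, 7.39%, 17.1% and 24.3% of all genes. DESeq2 called Apoa1 and Apoa2 in CR20-CTRL vs FED-CTRL, beside 150 of all genes. Without CR20-CTRL mouse 5, the edgeR log2FC of that comparison fell from 4.96 to 1.34 for Apoa1 and from 6.12 to 2.06 for Apoa2.

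The 3 libraries carried the liver set as a whole. Summed over Apoa1, Apoa2, Apoa4, Apoa5, Apob, Apoc3 and Apom, FED-HFD mouse 10 had 3014 counts, CR20-CTRL mouse 5 had 1807 and FED-HFD mouse 13 had 680, against 4 to 71 (median 15) in the other 21 libraries. Of the 10 hepatocyte markers, 8 had higher counts in each of these 3 libraries than in any of the other 21. Ttr, Fgb, Fga, Cps1, Ambp and Serpina1c, 6 of these 8 chosen after their values were seen, with at most 30 counts of each in the other 21 libraries, summed to 2085, 1615 and 522 counts in the same 3 libraries. Alb (1594 to 6082 counts against 48 to 770) and Ahsg (164 to 712 against 2 to 40) were also higher there. Hp and Cyp2e1 did not follow, with 20366 to 36677 against 17247 to 62067 counts for Hp and 390 to 2105 against 22 to 20096 for Cyp2e1. As a percentage of the liver level of the same mouse, the 7 apolipoprotein genes stood at a median of 1.04% in mouse 10, 0.13% in mouse 13 and 0.292% in mouse 5. The 10 hepatocyte markers stood at a median of 0.833%, 0.167% and 0.718%. Apoe, Apoc1 and Mttp were above these medians, by unequal margins. Apoe stood at 20.6%, 11.1% and 14.8% of the liver level of the mouse, Apoc1 at 4.7%, 2.67% and 0.944%, and Mttp at 2.31%, 3.32% and 4.6%. In mouse 10, the median share of the 7 genes would correspond to 185 CPM of Apoe, beside the 3669 CPM measured. For Apoc1 it would be 35.1 of 158 CPM and for Mttp 2.67 of 5.91 CPM. In mouse 5 it would be 26.4 of 85.1 CPM for Apoc1.

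**Figure D3:**
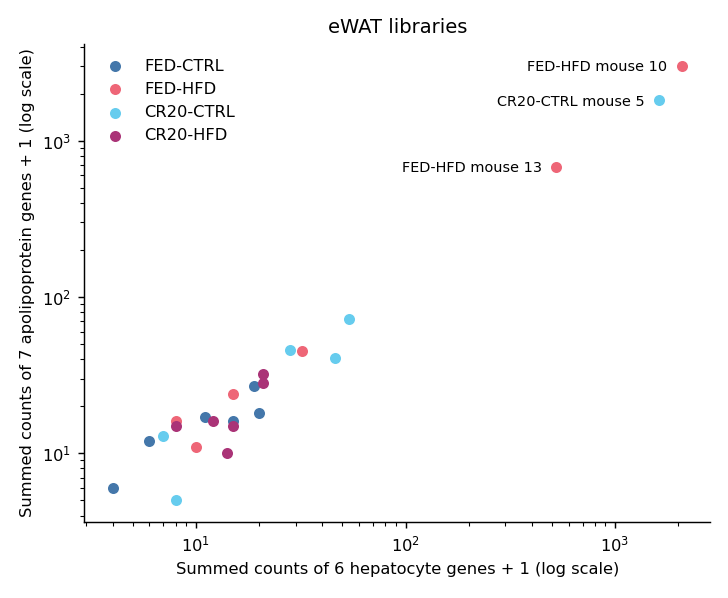
Summed counts of 7 apolipoprotein genes (Apoa1, Apoa2, Apoa4, Apoa5, Apob, Apoc3, Apom) against summed counts of 6 hepatocyte genes in the 24 eWAT libraries, each plus 1 on log axes and coloured by group. FED-HFD mice 10 and 13 and CR20-CTRL mouse 5 lie at 680 to 3014 counts, away from the other 21 libraries at 4 to 71.

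In the liver, 0 of the 10 genes were called in any of the 7 comparisons. Among all 13787 genes, 0.109% were called between the diets in FED mice, 0.522% between the diets in CR20 mice and 1.26% for HFD averaged over maternal groups (0.776% lower), and 0% in the other 4. At an unadjusted p under 0.05, edgeR gave 2 of the 10 genes between the diets in CR20 mice and for HFD averaged over maternal groups, Apoa4 and Mttp, beside 9.57% and 13.2% of all genes, and 0 in the other 5. DESeq2 called 1 of the 10, Apoa4, for HFD averaged over maternal groups, beside 267 of all genes. Limma's voom with quality weights called 0 of the 10, beside 416 of all genes for HFD averaged over maternal groups.

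Apoa4 came closest to a call, with lower levels on HFD. It ranged from 315 to 771 CPM in FED-CTRL (median 378), 194 to 498 in FED-HFD (median 293), 258 to 663 in CR20-CTRL (median 361) and 180 to 346 in CR20-HFD (median 217). The groups overlapped, though 5 of the 6 CR20-HFD mice were below the lowest CR20-CTRL mouse. Averaged over maternal groups, Apoa4 was 1.59-fold lower on HFD (log2FC -0.67, standard error 0.181, edgeR adjusted p = 0.0596), just past the threshold. DESeq2 gave the same log2FC with an adjusted p of 0.0164, limma's voom with quality weights gave -0.57 with 0.0137, and edgeR without CR20-CTRL mouse 5 gave -0.57 with 0.0987. The log2FC was -0.84 in CR20 mice (edgeR adjusted p = 0.201, exact permutation p = 0.013) and -0.5 in FED mice (adjusted p = 0.787, exact permutation p = 0.102), and the interaction was -0.34 (interval -1.06 to 0.38).

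Mttp was also lower on HFD without being called. It ranged from 222 to 336 CPM in FED-CTRL (median 268), 201 to 256 in FED-HFD (median 227), 233 to 367 in CR20-CTRL (median 290) and 167 to 301 in CR20-HFD (median 203). The groups overlapped, with 4 of the 6 CR20-HFD mice below all CR20-CTRL mice. The averaged log2FC was -0.34 (standard error 0.0993, edgeR adjusted p = 0.0864), and -0.3 without CR20-CTRL mouse 5. DESeq2 gave -0.34 with an adjusted p of 0.0259 and limma's voom with quality weights -0.35 with 0.00765, so by these tools it missed a call on the fold alone. Apob, which Mttp loads with lipid, ranged from 3406 to 6156 CPM in FED-CTRL (median 4480) and 3301 to 5302 in FED-HFD (median 4164). It ranged from 3393 to 6313 CPM in CR20-CTRL (median 4272) and 2687 to 5374 in CR20-HFD (median 3615). These groups overlapped throughout, and the averaged log2FC of -0.22 was not called (interval -0.49 to 0.05, edgeR adjusted p = 0.504).

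Hepatic Apoe ranged from 16992 to 23313 CPM in FED-CTRL (median 20113), 17782 to 33895 in FED-HFD (median 22157), 15700 to 25618 in CR20-CTRL (median 19973) and 18886 to 24003 in CR20-HFD (median 21387). The groups overlapped, and the comparison that was called in eWAT, CR20-HFD vs FED-HFD, had a hepatic log2FC of -0.2 (interval -0.51 to 0.11, edgeR adjusted p = 1). Apoa1, the main protein of high density lipoprotein, had group medians of 10006, 11431, 10495 and 11140 CPM in FED-CTRL, FED-HFD, CR20-CTRL and CR20-HFD, and Apoa2 of 9430, 8752, 8322 and 7932 CPM. For HFD averaged over maternal groups the interval was -0.28 to 0.38 for Apoa1 and -0.25 to 0.24 for Apoa2, and it was -0.36 to 0.24 for Apoa5, -0.37 to 0.32 for Apoc1, -0.32 to 0.32 for Apoc3 and -0.26 to 0.34 for Apom. Changes of the size required for a call (0.58) are outside those intervals.

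**Figure D4:**
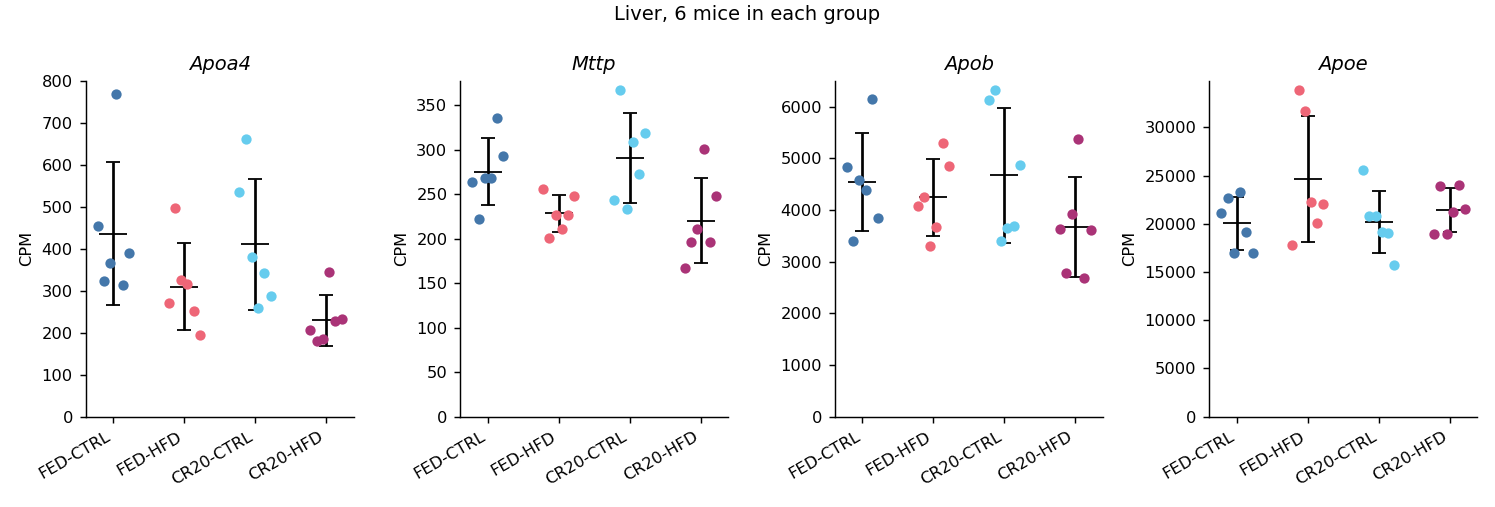
Hepatic Apoa4, Mttp, Apob and Apoe in CPM, in 6 mice per group, with 1 point per mouse and the mean ± SD in black. Apoa4 and Mttp are lower on HFD in both maternal groups with overlapping ranges, and Apob and Apoe overlap throughout.

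Within groups, the hepatic genes varied from mouse to mouse by different amounts. The pooled SD of log2 CPM was 0.46 for Apoa4, 0.43 for Apoc1, 0.41 for Apoa1 and Apoc3, 0.25 for Apoe and 0.23 for Mttp, where the median over all genes tested in liver was 0.4. CR20-CTRL mouse 5 lay outside the range of the 22 livers other than its own and that of CR20-CTRL mouse 4 for 6 of the 10 genes. It was above the others for Apoa1 (22954 CPM against at most 15942), Apob, Apoc1, Apoc3 and Mttp, and below them for Apom (43.9 CPM against at least 79.8). Mouse 4 was below the others for Apom, at 62.1 CPM. Hepatocyte markers summed to 76740 and 88629 CPM in mice 5 and 4, against 108461 to 133893 in the other 4 mice of the group, and Kupffer cell markers to 573 and 757 CPM against 235 to 377.

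Genes of the same cluster varied together in the liver, and so did several genes of different clusters. In deviations from the group means over 24 mice, the 6 pairs of the chromosome 9 cluster and the Apoc1 and Apoe pair, 7 in all, had Pearson r values of 0.62 to 0.88 (median 0.73), and the other 38 pairs had -0.64 to 0.95 (median 0.16). Those other pairs include the chromosome 9 cluster genes with Apoc1 or Apoe, which lie on another chromosome. Their r values were in a like range, from 0.54 (Apoa5 and Apoe) to 0.95 (Apoc1 and Apoc3). The r of Apoc1 and Apoc3 was the highest of all pairs. Apob correlated with Mttp (0.55) and Apoa5 (0.56) and little with Apoa1 (0.09). Apom had a negative r to each of the other 9 genes, from -0.64 with Apoc1 to -0.06 with Mttp, but this rested on CR20-CTRL mice 4 and 5. Without these mice the r of Apom was positive with 5 of the 9, at 0.07 with Apoa1, 0.19 with Apoa4, 0.14 with Apoa5, 0.36 with Apob and 0.17 with Mttp, and -0.29 to -0.22 with the other 4. Also without them, the 7 pairs had r values of 0.42 to 0.86 (median 0.64) and the other 38 had -0.71 to 0.91 (median 0.12). All points share their library and its depth, and genes are not independent replicates.

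**Figure D5:**
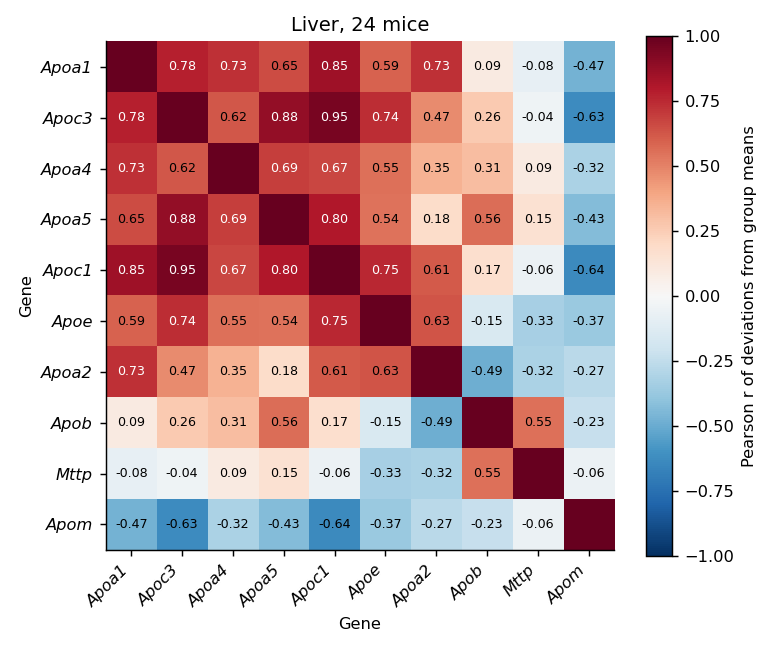
Pearson r between the 10 genes over 24 livers, computed from deviations of log2 CPM from the 4 group means, with blue for negative and red for positive values. Apoa1, Apoc3, Apoa4, Apoa5, Apoc1 and Apoe form a block of positive values from 0.54 to 0.95, and the row of Apom is negative with these 24 livers, while 5 of its 9 values are positive without CR20-CTRL mice 4 and 5.

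The genes most like each member in the liver were mostly no lipoprotein genes. Apoc1 was most like the ribosomal gene Rpl36 (0.98), the respiratory chain gene Ndufb7 (0.97) and the ribosomal gene Fau (0.97), and Apoc3 most like Atp5mc1 (0.97), Park7 (0.96) and Rpl18 (0.96). Apob was most like Wapl (0.95), F13b (0.93) and Mob1a (0.93), and Mttp most like Togaram1 (0.87), Arih1 (0.87) and Zfr (0.86). Apom was most like the plasma protein genes Plg (0.91) and Gpld1 (0.88), followed by Lrrc61 (0.87). Apoa5 was most like Cyc1, Mpnd and Serpinc1 (0.94 each), and Apoa4 most like Thap7 (0.85), Borcs8 (0.84) and Ctnnbl1 (0.82). For Apoa1 they were Prdx2 (0.93), Gm5617 (0.92) and Sdhc (0.91), for Apoa2 Uqcc3 (0.92), Ap2s1 (0.91) and Spint2 (0.89), and for Apoe Akt1s1 (0.9), Mrpl52 (0.9) and Cox8a (0.87).

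In the pituitary, 0 of the 5 tested genes were called in any comparison, beside 0.006% of 16657 genes for HFD averaged over maternal groups and 0% in the other 6. At an unadjusted p under 0.05, edgeR gave 1 of the 5 genes in 5 of the 7 comparisons. Apoa1 was given between the diets in CR20 mice, beside 7.28% of all genes. Apoc1 was given between the diets in FED mice and between the maternal groups on HFD, beside 9.64% and 6.77%. It was also given for HFD averaged over maternal groups and for the interaction, beside 6.23% and 11%. Leaving out FED-HFD mouse 10 took these 4 Apoc1 log2FC from 2.39, -1.98, 1.06 and -2.67 to 0.3, 0.11, 0.02 and -0.57. CR20-CTRL vs FED-CTRL and CR20 averaged over diets gave 0 of the 5, beside 17.3% and 13.2%. DESeq2 and limma's voom with quality weights called 0 of the 5 genes. Apoe ranged from 265 to 334 CPM in FED-CTRL (median 319), 248 to 370 in FED-HFD (median 337), 275 to 398 in CR20-CTRL (median 361) and 287 to 362 in CR20-HFD (median 341). The groups overlapped, and in the comparison called in eWAT the pituitary log2FC of Apoe was 0.04 (interval -0.15 to 0.22). Mttp was the steadiest, at 23.7 to 31.3 CPM in FED-CTRL (median 27.4), 25.7 to 28.7 in FED-HFD (median 26.5), 23.9 to 29.1 in CR20-CTRL (median 27.5) and 26.1 to 34.2 in CR20-HFD (median 28.4). Its pooled SD of log2 CPM was 0.13, where the median of all pituitary genes was 0.22.

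Apoc1 reached 14 CPM (279 counts) in the pituitary of FED-HFD mouse 10. Its medians were 0.585, 0.839, 0.855 and 0.623 CPM in FED-CTRL, FED-HFD, CR20-CTRL and CR20-HFD, and the highest value of the other 3 groups was 1.69. That library also had the highest adipocyte sum of all pituitaries, 183 CPM against a median of 27.9, and the highest hepatocyte sum, 26.5 against a median of 3.28. The log2FC of Apoc1 in FED-HFD vs FED-CTRL was 2.39 (edgeR adjusted p = 0.221), and without mouse 10 it was 0.3 (adjusted p = 0.839). Apoa1 had medians of 0.275 CPM in CR20-HFD and 0.611 CPM in CR20-CTRL, a log2FC of -1.02 (edgeR adjusted p = 0.621, exact permutation p = 0.0541).

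Other genes of the pathway were taken as 6 lists of 92 genes in all. In eWAT, 11 of the 74 list genes tested were called higher in FED-HFD than in FED-CTRL and 0 lower, beside 6.42% and 1.58% of all genes. In lipoprotein assembly and secretion, 3 of 15 tested genes rose, Apobec1, which edits Apob mRNA (log2FC 1.68), the cholesterol esterifying enzyme Soat1 (2.01) and the transcription factor Creb3l3 (2.56), with a list median of 0.0 as for all genes. In receptors and uptake, 5 of 15 rose, among them the heparan sulfate proteoglycan Sdc1 (1.86), the apolipoprotein B receptor Apobr (1.08) and the endocytic receptor Lrp1 (0.68), with a list median of 0.31. The phospholipid transfer protein Pltp rose by 1.36 as 1 of 9 genes of plasma lipases and their regulators. In cholesterol efflux, 2 of 10 rose, the sterol exporter Abcg1 (1.1) and the cholesteryl ester hydrolase Nceh1 (2.09), with a list median of 0.27. These values were adjusted over all genes by edgeR, and 8 of 12 macrophage markers were called higher in FED-HFD than in FED-CTRL. Their sums were 1667 to 2385 CPM in FED-CTRL and 2375 to 10353 in FED-HFD, ranges that overlap slightly, and their part in these list counts was not tested.

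In CR20-HFD vs FED-HFD, 11 of the 74 list genes were called lower and 2 higher, beside 7.29% and 2.45% of all genes. In the same comparison 9 of 12 macrophage markers and 7 of 7 lipid-associated macrophage markers were called lower, and their part in the list counts was not tested. Soat1 (-2.31), Apobec1 (-1.76) and Creb3l3 (-2.2) were lower in assembly, Apobr (-1.27), the scavenger receptor Msr1 (-1.88) and Sdc1 (-1.8) among 5 of 15 in uptake, Pltp (-0.99) in the lipase list, and Abcg1 (-0.96) and Nceh1 (-2.28) in efflux. The higher genes were Gpihbp1 (0.86), which anchors lipoprotein lipase to capillaries, and the nuclear receptor Nr2f1 (0.76), 1 of 14 regulators of apolipoprotein genes. This comparison shares the FED-HFD libraries with the previous one. Among other apolipoprotein genes, 0 of 11 were called in either. Apod, a lipocalin, was 1 of 11 called for CR20 averaged over diets (log2FC 1.99), beside 1.62% of all genes called higher. The interaction called 6 of the 74 list genes tested in eWAT, all lower, beside 2.34% of all genes called lower. They were Soat1 (-2.7), Apobec1 (-1.91), Nceh1 (-2.54), Abcg1 (-1.05), Pltp (-1.28) and Lrp1 (-0.79). Without CR20-CTRL mouse 47, the interaction called 0 of all genes. Also for CR20 averaged over diets, Nr2f2 (0.66) and Nr2f1 (0.59) were higher, and Apobec1 (-0.81), Soat1 (-0.96), Msr1 (-1.09), Apobr (-0.7) and Nceh1 (-1.01) lower. Of all genes, 1.62% were called higher there and 2.34% lower.

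In the liver, 1 of the 19 regulators of apolipoprotein genes was called, lower for HFD averaged over maternal groups. It was Srebf1, a transcription factor of lipid synthesis (log2FC -1.18, edgeR adjusted p = 0.00694). Of all genes, 0.776% were called lower there. The medians of the 6 lists in that comparison lay between -0.15 and 0.16, and the median over all genes was -0.01. In the pituitary, 0 of the 65 list genes tested were called in the 7 comparisons. Of all pituitary genes, 0.006% were called for HFD averaged over maternal groups and 0% in the others. By edgeR at an unadjusted p under 0.05, all pituitary genes numbered 1038 to 2887 depending on the comparison.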

How the data were processed

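RNA from the eWAT, liver and pituitary of 24 mice was sequenced by the authors as paired-end reads, trimmed with Trimmomatic, aligned with STAR to GRCm39 and counted per gene with Subread featureCounts. The values deposited are raw counts per gene and library, with no normalization. The strand setting of the counting is not given in the sources used here, so reads shared by overlapping genes cannot be told apart. Library totals ranged from 9842813 to 27601208 counts. Of 55416 identifiers, 54749 were named with GENCODE M39.

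Each tissue was fitted separately over its 24 libraries with edgeR 4.0.16 in R 4.3.3 (filterByExpr, TMM, glmQLFit and glmQLFTest with 1 coefficient per group), and p-values were adjusted over all genes tested by the Benjamini-Hochberg method. The standard error is the absolute log2FC divided by the square root of the F statistic. Log2 CPM used a prior count of 2. Alternatives were limma 3.58.1 (voom with quality weights, the test of the authors), DESeq2 1.42.0, other normalization, filters and thresholds, a covariate for the range of animal numbers, and leaving out each mouse. The fits were tested on simulated data. Exact permutation tests ran over the 924 divisions of 12 mice and were two-sided. Groups came from the labels. Where litters are shared, p-values measure the spread between mice only. The genes and lists were chosen with earlier results of these data known. All 10 genes are named, and of each list at most 3 called genes per direction and comparison, by smallest p-value, and the 3 genes with the highest Pearson r to each gene. The 6 interaction genes are also given as a complete set. A result of the lists is not reported here.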

Additional observations from a re-analysis of the deposited data

Results flagged for a closer look

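In 80 groups of 6 libraries, 1 library stood apart from the other 5 by Dixon's 95% criterion in 7, where chance gives about 1 in 20. In eWAT these were Apoa2 in CR20-CTRL mouse 5 (log2 CPM 5.6, others -3.22 to 0.02), Apoc1 in FED-HFD mouse 23 (5.14, others 6.84 to 7.49) and Mttp in CR20-CTRL mouse 5 (4.09, others 2.42 to 3.01). In liver, Apoa5 stood apart in FED-HFD mouse 11 (11.89, others 10.82 to 11.07). In pituitary, Apoc1 was low in FED-CTRL mouse 15 (-1.72, others -0.73 to -0.34) and high in FED-HFD mouse 10 (3.82, others -1.4 to 0.21), and Apoc3 was low in FED-CTRL mouse 15 (-0.95, others -0.01 to 0.47).

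The edgeR interaction of maternal group and diet in eWAT passed the threshold for Apoa1 (log2FC -10.56) and Apoa2 (-12.81), genes near the limit of detection in most libraries. Both values rest on FED-HFD mice 10 and 13 and CR20-CTRL mouse 5. Without these 3 libraries the interaction of Apoa1 was -1.34 (edgeR adjusted p = 0.576) and that of Apoa2 -3.6 (adjusted p = 0.0998), and without CR20-CTRL mouse 5 alone the adjusted p-values were 0.107 and 0.072. With limma's voom and quality weights they were -3.56 (adjusted p = 0.562) and -5.48 (adjusted p = 0.317). A difference between the maternal groups in the response of these genes is therefore not shown apart from these libraries.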

How the results depend on the processing

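No paired analysis was possible because the groups compared within a tissue hold different mice and share no animal numbers. The difference of Apoe between CR20-HFD and FED-HFD in eWAT was called in 8 of 8 alternatives and in 24 of 24 fits that each left out a mouse, with a log2FC of 0.71 to 0.85 in the former. The number of the 10 genes called in eWAT FED-HFD vs FED-CTRL went from 2 to 0 with voom and quality weights, with a filter of over 1 CPM in 6 libraries, with only the groups compared and without the 3 libraries holding hepatocyte counts, and to 4 with no filter (0 to 2 leaving out a mouse). In CR20-HFD vs FED-HFD it went from 3 to 1 under those alternatives and the animal-number covariate, and to 5 with no filter (1 to 3 leaving out a mouse). For the interaction it went from 2 to 0 with voom, with the CPM filter and without the 3 libraries, to 1 with the covariate and to 5 with no filter (0 to 2 leaving out a mouse). With no filter, Apoa4, Apoa5, Apob, Apoc3 and Apom were also tested in eWAT. Their counts were highest in the 3 libraries holding hepatocyte counts and at most 12 in the other 21. Between maternal groups on CTRL, DESeq2 called 2 (Apoa1 and Apoa2), beside 150 of all genes. Dropping the fold minimum called 1 for CR20 averaged over diets. In liver, DESeq2, no filter and the covariate each called 1 for HFD averaged over maternal groups (0 to 1 leaving out a mouse), and in pituitary no filter called 1 in FED-HFD vs FED-CTRL. The direction reversed for Apoa1 in eWAT CR20-HFD vs FED-HFD without the 3 libraries (0.02) and for Apoc1 in the same comparison of the pituitary without FED-HFD mouse 10 (0.11, from -1.98, with -2.23 the lowest value when a mouse was left out). The cause was not tested.

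Over all genes, eWAT calls in FED-HFD vs FED-CTRL fell from 1278 to 750 at a log2FC of 1 and to 656 without FED-HFD mouse 23, and in CR20-HFD vs FED-HFD from 1554 to 877 and 861, against 2510 with no fold minimum. The interaction gave 387, against 177 with voom, 820 with DESeq2 and 0 without CR20-CTRL mouse 47, HFD averaged over maternal groups 28 (7 to 388) and CR20 averaged over diets 632 (296 to 1177). CR20-CTRL vs FED-CTRL gave 0 and 150 with DESeq2. Liver calls were 15 (4 to 52), 72 (12 to 151) and 174 (79 to 416). In pituitary, 0 calls became 118 at most between maternal groups on CTRL, 44 between diets in FED mice and 19 between maternal groups on HFD, and 1 became 19 for HFD averaged over maternal groups.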
